A study of Mus musculus with 43 samples.

Results

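Glycine tRNAs occur with several anticodons, the base triplet that reads the codon, and the fragments described here come from the mouse tRNA-Gly species whose anticodon is CCC, TCC or ACC rather than GCC. The members were all count rows of tRNA-Gly fragments outside GCC, with 3 fragment types for each of 6 isodecoders, which are tRNAs that share an anticodon and differ elsewhere in sequence. This gave 18 rows (tRNA-Gly-ACC-1, tRNA-Gly-CCC-1 to CCC-4 and tRNA-Gly-TCC-1) among 5364 rows listed in the whole series, and all 18 were listed in the tissue, fluid and sperm tables. A 5′ tRF starts near the first base of the mature tRNA, a 3′ tRF ends near its last base, and the type called "other" touches neither end.

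A tRNA fragment (tRF) arises when an endonuclease cuts a tRNA in an exposed loop, most often the anticodon loop. Such a cut leaves a 5′ piece and a 3′ piece, and enzymes of the RNase A family leave a phosphate on the 3′ end of the 5′ piece that blocks library construction unless it is removed first. In the epididymis, the duct in which sperm mature, 5′ fragments of glycine and glutamate tRNAs are known as abundant small RNAs of the epithelium and of mature sperm.

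Small RNA was sequenced from FVB mice aged 8 to 12 weeks. They were wild type (WT) or carried a CRISPR deletion of the Rnase9-12 cluster in all cells (KO). The genes of this cluster encode RNase A family proteins of the epididymis. The paper describes these proteins as noncanonical members of the family, and found no tRNA cleavage by the recombinant proteins in vitro. RNA in every group was treated with polynucleotide kinase to make blocked 3′ ends clonable. Whole epididymal tissue was taken from caput, corpus and cauda, the successive parts of the duct (3 WT and 3 KO libraries each, but 2 KO libraries from corpus), and was cloned by ARM-seq. Luminal fluid, spun free of sperm, debris and vesicles, came from the same segments (3 WT and 3 KO libraries each), and cauda sperm gave 4 WT and 4 KO libraries, both cloned by OTTR-seq. Each fluid or sperm library held RNA of 3 mice, while pooling of tissue is not stated in the sources used here.

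Tissue libraries held 30142156 to 249732710 counts in total, fluid libraries 1948718 to 12320922, and sperm libraries 1134840 to 62128314. Depth went with genotype in sperm, where 3 of 4 KO libraries and 1 of 4 WT libraries held 42764979 counts or more and the other 4 held at most 3618739. The labels of 7 libraries (WT caput tissue replicate 3 and the 6 caput fluid libraries) gave the section as cauda while their titles read caput, and they were grouped by title. No row of the tables measured the deleted genes, so the genotype labels could not be checked against them. The microRNAs of the Mir200 family, which mark epithelium, were present in every tissue and fluid library. Smooth muscle markers (Mir143 and Mir145a, summed) stood at 20.6 to 40.3 CPM (counts relative to the scaled library total) in WT caput tissue and 108 to 215 CPM in WT cauda tissue.

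Where the 5′ tRFs end is not given by the counts. To show where the anticodon of a CCC tRNA lies, the sequence that leads to it is given for the tRNA-Gly-CCC gene n-TGccc7 (RefSeq, mm10, chr17:25875093-25875122, plus strand). It spans positions 6 to 35 of this 71-base gene, with the anticodon in capitals:
n-TGccc7: gctggtgtagtggtatcatgcaagattCCC
This gene lies in the first exon of Mettl26, before its coding sequence, and in an intron of the lincRNA Gm26694. The tables do not pair it with any of the rows CCC-1 to CCC-4. RefSeq lists 6 tRNA-Gly-CCC genes on 4 chromosomes, 7 tRNA-Gly-TCC genes of 72 bases on 3 chromosomes, and 1 tRNA-Gly-ACC gene, n-TGacc1, of 74 bases (chr11:48823728-48823801, overlapping no annotated gene). The ACC gene sits 5113 bases from the tRNA-Val-CAC gene n-TVcac7.

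The 5′ tRF of tRNA-Gly-CCC-1 was the leading fragment of the list in fluid. It stood at 32933, 26968 and 29632 CPM in WT caput fluid, at 15120, 24019 and 16981 CPM in WT corpus fluid, and at 15227, 14683 and 26037 CPM in WT cauda fluid. In tissue the same fragment stood at 5.21 to 30.6 CPM over all 17 libraries, and in sperm at 162 to 871 CPM over 8 libraries. Next in most fluid libraries came the 5′ tRF of tRNA-Gly-TCC-1, the isodecoder that reads GGA codons, with 2233 to 11281 CPM over the 18 fluid libraries. In the KO caput fluid libraries the 3′ tRF of CCC-1 stood above it, at 2728, 2805 and 4637 CPM. The TCC-1 5′ tRF stood at 2.32 to 10.1 CPM in tissue and 52.2 to 569 CPM in sperm. Tissue and fluid were cloned by different protocols and counted in separate tables, so protocol and compartment cannot be told apart and no test was made between them.

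The leading fragment of the list was another one in tissue. The 3′ tRF of tRNA-Gly-ACC-1 stood at 90.6 to 259 CPM there, above the 3′ tRF of tRNA-Gly-CCC-1 in all 17 libraries, at 150% to 667% of its count. In fluid it stood at 669 to 4909 CPM and in sperm at 15.5 to 54.5 CPM. Together the 18 members made up 1.44% to 2.32% of all tRF counts in tissue, 2.40% to 7.56% in fluid and 3.67% to 5.38% in sperm. Within all tRNA-Gly fragments, GCC included, their share was 8.06% to 25.1% in tissue, 9.0% to 29.8% in fluid and 18.5% to 32.05% in sperm. These sums can count a read more than once, since CCC-2, CCC-3 and CCC-4 held near-equal counts for most fragment types. They also include the ACC-1 rows, whose tissue counts lay close to those of tRNA-Val rows, as described below.

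**Figure D1:**
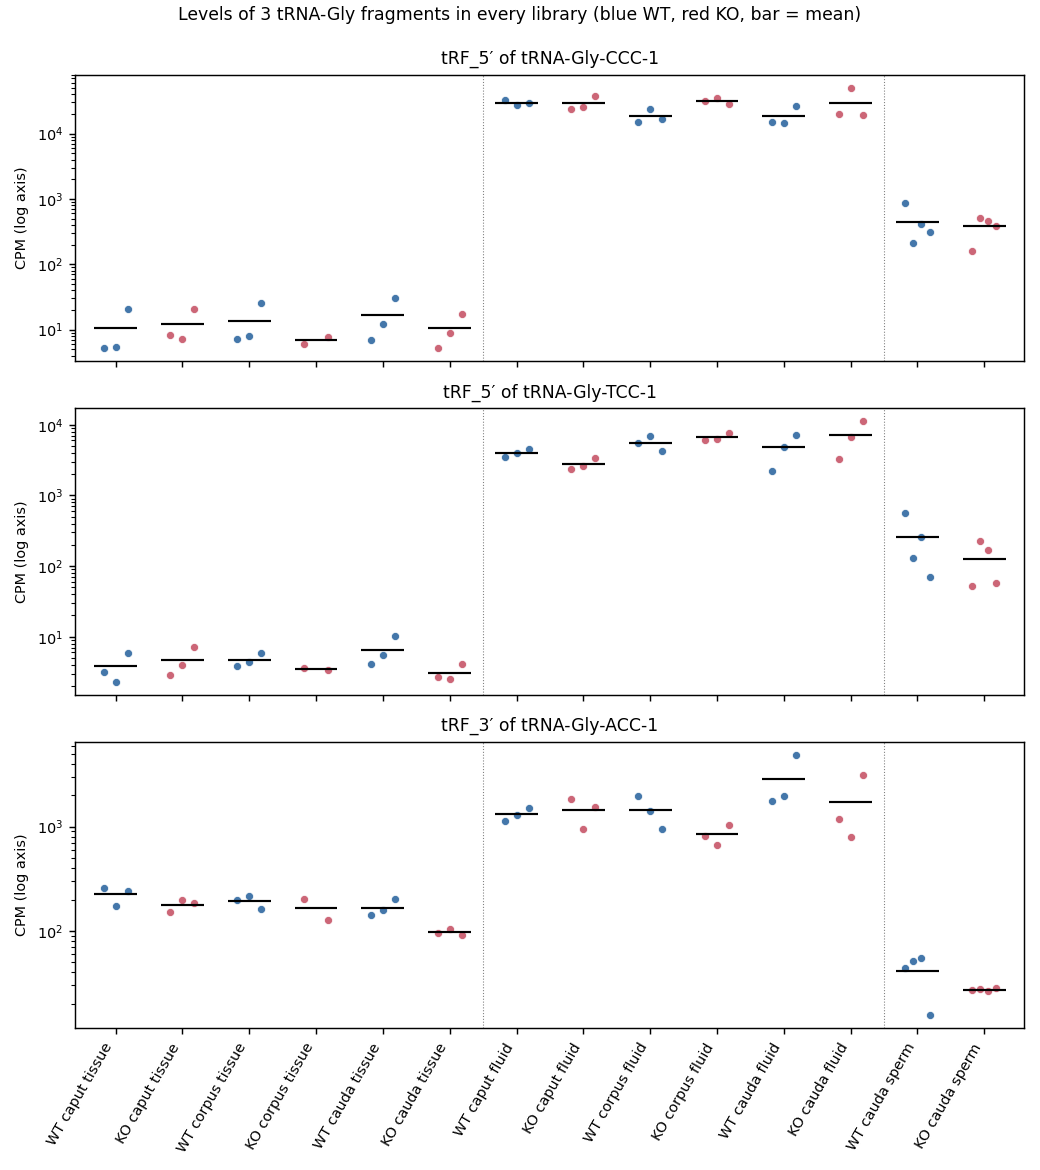
Normalised level (CPM, log scale) of the leading tRNA-Gly fragments outside GCC in each library, with WT and KO libraries of each segment side by side for tissue, fluid and sperm. The 5′ tRF of tRNA-Gly-CCC-1 lies between 14683 and 50698 CPM in every fluid library and below 31 CPM in every tissue library.

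The balance of fragment types differed between isodecoders with the same anticodon. In tRNA-Gly-CCC-1 the 5′ tRF took a mean of 88.8% to 95.1% of fragment counts in the fluid groups, and in TCC-1 it took 77.3% to 90.1%. In CCC-2 the 5′ tRF took only 13.6% to 29.6% in the same groups, and the type "other" and the 3′ tRF held the rest. In tissue the 5′ share was lower for each of these 3 isodecoders, at group means of 11.7% to 15.9% for CCC-1, 9.45% to 15.2% for TCC-1 and 0.21% to 0.56% for CCC-2. Sperm lay in between for CCC-1, with a WT mean of 65.9% ± 17.4 and a KO mean of 73.9% ± 12.0 (SD, n = 4 each). For TCC-1 the sperm shares averaged 41.5% ± 14.8 for WT and 33.5% ± 17.8 for KO (SD, n = 4 each). ACC-1 ran the other way, with a 5′ share of 23.2% to 37.2% in the tissue groups and 0.36% to 4.72% in the fluid groups.

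**Figure D2:**
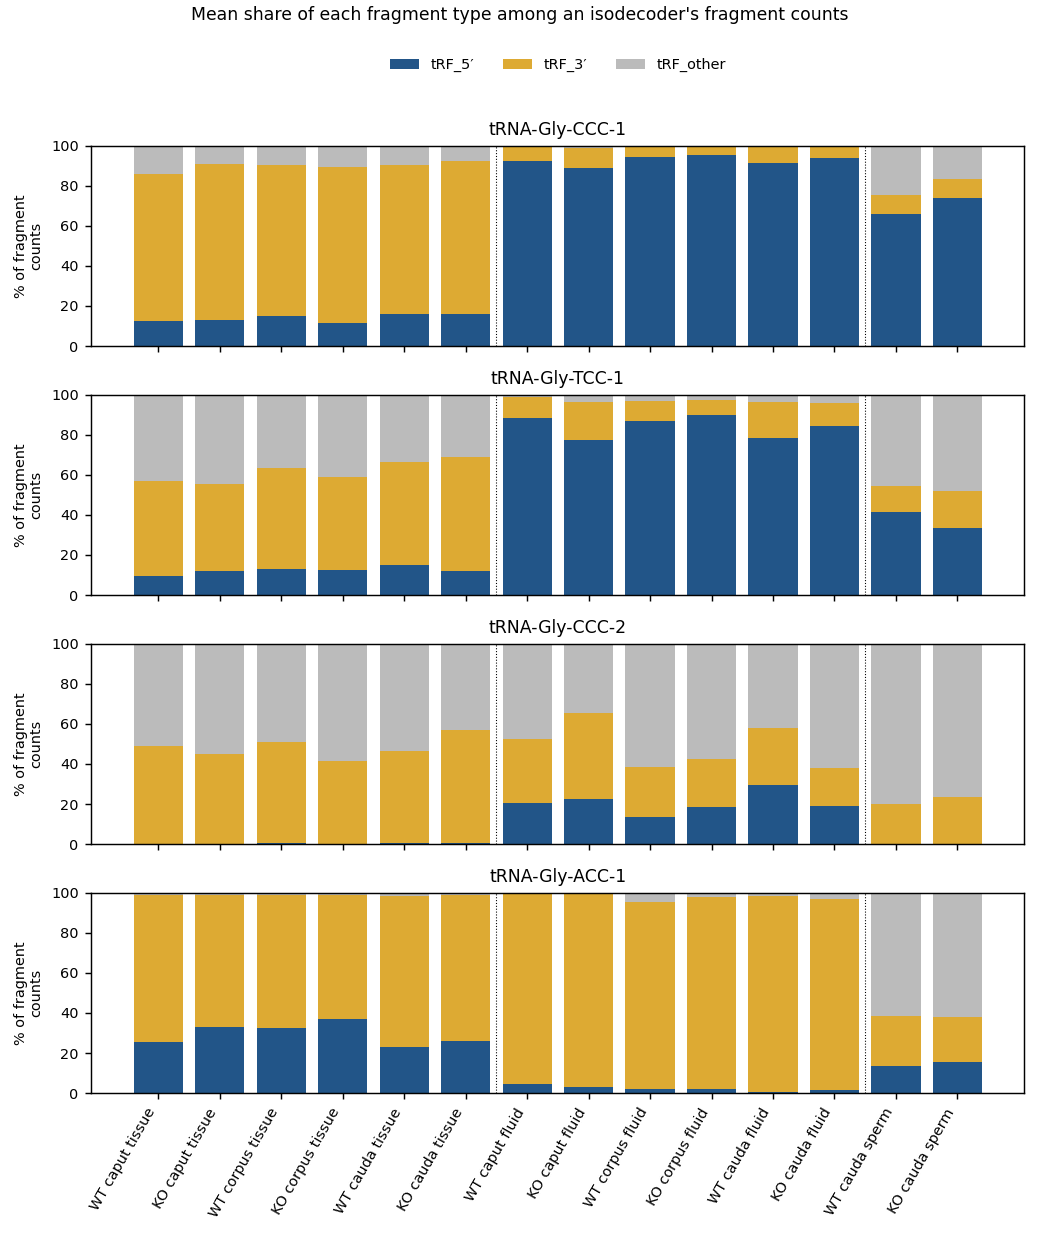
Share of fragment counts (percent) held by 5′ tRF, 3′ tRF and the type "other" for tRNA-Gly-CCC-1, CCC-2, TCC-1 and ACC-1, as stacked means per group. The 5′ tRF fills most of the CCC-1 and TCC-1 bars in fluid and a small part of them in tissue.

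The rows CCC-2, CCC-3 and CCC-4 were not separate measurements for most fragment types. The authors extracted all best mappings of a read, and near-equal counts point to reads counted on more than 1 of these rows. The counts of CCC-2 and CCC-3 of the type "other" were equal in 16 of 18 fluid libraries and differed by at most 2 counts in the rest. CCC-3 and CCC-4 each held 1.37 to 3.40 times the 5′ count of CCC-2 in fluid. CCC-1 was distinct, with 328 to 2568 times the 5′ count of CCC-2 in fluid. Below, CCC-2 stands for these 3 rows unless they differ.

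The ACC-1 rows followed tRNA-Val rows closely in some tables, a pattern noticed after its values were seen. In tissue the 3′ tRF of ACC-1 held 100.1% to 116.8% of the count of the 3′ tRF of tRNA-Val-AAC-2 (median 102%, 17 libraries), and in sperm 100% to 116.4% (8 libraries). Its 5′ tRF in tissue held 102% to 109% of the tRNA-Val-AAC-2 5′ count. In fluid the picture changed: the 3′ tRF of ACC-1 held 288% to 1374% of the tRNA-Val-AAC-2 count and 20.9% to 32.6% of the tRNA-Val-CAC-2 count (median 28.3%, 18 libraries). Pearson's r of the log2 CPM of those last 2 rows was 0.97 over the 18 fluid libraries, given as a description with no test. Reads were required to be specific to amino acid and anticodon. What makes these counts alike was not tested, and every ACC-1 value below is given as uncertain.

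**Figure D3:**
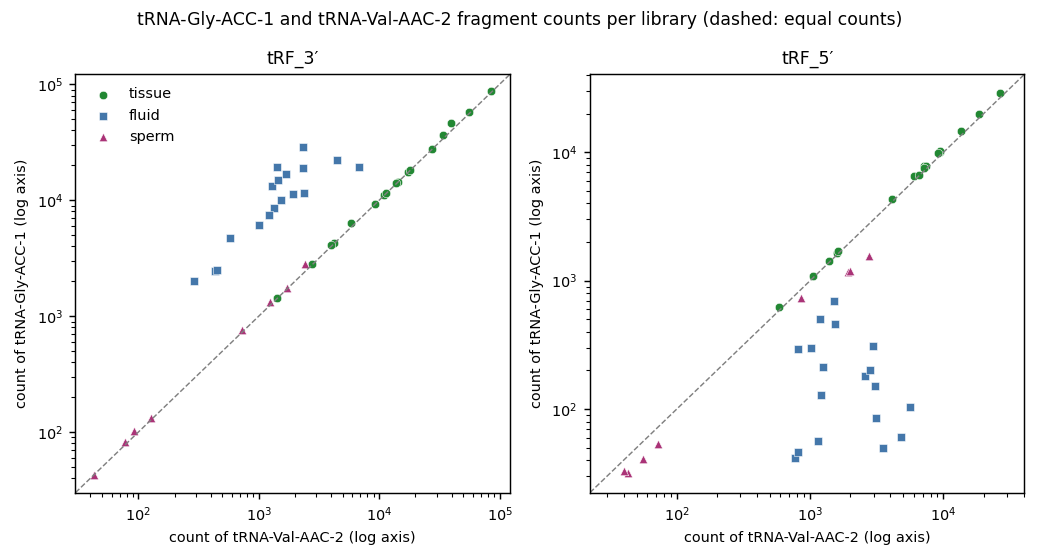
Counts of tRNA-Gly-ACC-1 fragments (vertical axis) against tRNA-Val-AAC-2 fragments of the same type (horizontal axis), 1 point per library, log scales, by table. The 3′ and 5′ points of tissue lie along the line of equal counts, while in fluid the 3′ points lie above it and the 5′ points below it.

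Full-length reads of the same isodecoders were rare. The paper states that its method favours shorter RNAs and picks up few full-length tRNAs. tRNA-Gly-ACC-1 had 1 full-length count in all 43 libraries and CCC-4 had none. In tissue, full-length CCC-1 stood at 1.07 to 5.69 CPM and full-length TCC-1 at 0.37 to 2.42 CPM. In caput fluid, full-length TCC-1 stood at 20.2, 25.4 and 21.1 CPM in WT and 37.3, 24.9 and 38.8 CPM in KO libraries, which overlap. In sperm, at most 27 full-length counts of TCC-1 and 2 of CCC-1 were found in a library. Fragments exceeded full-length reads of CCC-1 and TCC-1 in every group. Given that cloning bias, this does not measure how much of each tRNA was cut.

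The differences along the WT duct were examined first in fluid, with caput as the reference. In WT cauda against WT caput fluid, 1 member was lower and 4 were higher by the call used throughout (edgeR quasi-likelihood test, adjusted p under 0.05 over all rows tested and more than a 2-fold change). That is 5 of 18 members, where 25.1% of all 2023 rows tested were called, 15.4% lower and 9.69% higher. CCC-3 5′ tRFs stood at 24.7, 21.2 and 22.9 CPM in caput and 46.0, 72.0 and 95.4 CPM in cauda, with no overlap. They rose by 1.63 on the log2 scale (SE 0.40, edgeR adjusted p = 0.0052), and CCC-4 held the same counts to within 2 reads.

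Beside it, the CCC-2 5′ tRF stood at 17.2, 15.4 and 14.8 CPM in WT caput fluid and at 25.7, 44.0 and 56.8 CPM in WT cauda fluid. It rose by 1.41 (log2, SE 0.44, edgeR adjusted p = 0.0241), a call lost without any 1 of the WT caput libraries or without WT cauda replicate 2 or 3 (edgeR adjusted p = 0.0506 to 0.097). CCC-1 ran against the other CCC isodecoders: for its 5′ tRF every cauda library lay below every caput library, by 0.68 on the log2 scale (SE 0.36), and this did not pass (edgeR adjusted p = 0.161). Of the ACC-1 rows, the 5′ tRF stood at 93.3, 51.8 and 44.8 CPM in WT caput and 7.82, 9.16 and 10.4 CPM in WT cauda fluid. It fell by 2.80 (log2, SE 0.54, edgeR adjusted p = 0.0011). ACC-1 of the type "other" rose from 11.0, 9.27 and 13.3 CPM to 66.6, 32.4 and 16.3 CPM, a log2 change of 1.78 (SE 0.56, edgeR adjusted p = 0.0238). Without WT cauda replicate 1 that last change was 1.14 (edgeR adjusted p = 0.152), and without any 1 of the WT caput libraries the call was lost as well. It was also lost when scaled by library size alone (edgeR adjusted p = 0.0502) and with a replicate block (log2 change 1.58, edgeR adjusted p = 0.0508). Whether replicate numbers pair libraries of different segments was not examined.

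Leaving out any of the 3 WT caput fluid libraries brought the calls from 5 to 3. Counted over the list, the cauda and caput fluid groups did not overlap for 8 members higher and 2 lower in cauda, where 16.5% and 26.6% of all rows were apart in those directions. The median log2 change was 0.79 for the members and -0.17 for all rows. The 12 tRNA-Gly-GCC fragments, the rest of the glycine set, had a median of 0.84, with 11 of 12 positive and 1 called. Full-length TCC-1 went the other way, from the 20.2 to 25.4 CPM of WT caput to 0.37, 10.7 and 5.27 CPM in WT cauda fluid. It fell by 2.03 (log2, SE 0.72, edgeR adjusted p = 0.0425). That call was lost with library size alone, with factors from rows other than tRNA and rRNA fragments, without the filter on low counts and with the 2 groups alone (edgeR adjusted p = 0.0552 to 0.108), and also without any 1 of the WT caput libraries or without WT cauda replicate 1 or 3.

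Cell markers also stood apart between WT cauda and WT caput fluid. Germ cell and sperm markers (Mir34b, Mir34c and Mir449a) summed to 15.1 to 31.6 CPM in cauda and 1.996 to 3.50 CPM in caput, and smooth muscle markers to 147 to 321 CPM and 76.8 to 139 CPM. Erythrocyte markers summed to 40.0 to 61.0 CPM in cauda and 23.6 to 25.02 CPM in caput, leukocyte markers to 19.9 to 39.7 CPM and 6.44 to 9.98 CPM, while epithelial markers overlapped. Their part in these results was not tested.

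Corpus fluid was compared with the same WT caput libraries, so the comparisons share their controls. In WT corpus against WT caput fluid, 1 of 18 members was called, where 17.7% of all rows were, 9.54% lower and 8.21% higher. The type "other" of ACC-1 stood at 76.6, 61.9 and 70.3 CPM in corpus against 9.27 to 13.3 CPM in caput. It rose by 2.63 (log2, SE 0.57, edgeR adjusted p = 0.0046). CCC-1 5′ tRFs were again below every caput library, by 0.67 (log2, SE 0.36), without passing (edgeR adjusted p = 0.198). Corpus and caput did not overlap for 7 members higher and 4 lower, where 16.8% and 21.5% of all rows were apart. The 4 lower members were all 3 fragment types of CCC-1 and the 5′ tRF of ACC-1. Both full-length rows tested were lower in corpus without overlap as well, with log2 changes of -2.04 and -1.82. Neither was called (lowest edgeR adjusted p = 0.0819). Epithelial markers summed to 27.1 to 62.6 CPM in WT corpus and 103 to 182 CPM in WT caput fluid. Leukocyte markers summed to 13.0 to 17.5 CPM in corpus and 6.44 to 9.98 CPM in caput. Germ cell and sperm markers summed to 3.58 to 9.06 CPM and 1.996 to 3.50 CPM. Smooth muscle and erythrocyte markers overlapped, and the part of the markers in these results was not tested.

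In tissue, WT cauda against WT caput gave 1 member called of 18, where 23% of 3488 rows were, 7.28% lower and 15.7% higher. This was the 5′ tRF of CCC-4, with 27, 15 and 181 counts in caput and 19, 18 and 398 in cauda. On the CPM scale it stood at 0.25, 0.18 and 0.50 against 0.63, 0.69 and 1.73, a log2 change of 1.71 (SE 0.58, edgeR adjusted p = 0.0395). The call was lost when the TMM scaling was left out or taken from rows other than tRNA and rRNA fragments. It was also lost without WT caput replicate 1 or 2, or without WT cauda replicate 3, and without WT caput replicate 3 a second member was called. Without overlap, the 5′ tRFs of CCC-3 and CCC-4 were higher in cauda (19.3% of all rows were) and the 5′ tRF of ACC-1 was lower (18.6%). WT corpus against WT caput tissue gave 0 of 18 members called by edgeR, 2 at an unadjusted p under 0.05, where 11.8% of all rows were called, 2.81% lower and 9% higher. DESeq2 called no member and 500 rows in all. No member had groups apart there, where 9.12% of all rows were lower and 14.1% higher without overlap.

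The ratio of 2 fragments within a library does not depend on how libraries are scaled, and the 5′ tRF of CCC-1 was therefore set against that of tRNA-Gly-GCC-2, the GCC row with the highest 5′ count. In WT caput fluid the log2 ratio was -0.25, -0.36 and -0.57, close to equal counts. In WT corpus fluid it was -1.82, -0.94 and -1.20, and in WT cauda fluid -2.05, -1.69 and -1.66. The cauda mean differed from the caput mean by -1.405 and the corpus mean by -0.93, with no overlap in either. With 3 libraries against 3, an exact 2-sided permutation test cannot go below p = 0.1, which both comparisons gave. Adjusted over the 66 ratio and share comparisons made, the exact permutation p was 0.574 in both. With tRNA-Gly-GCC-1 as the denominator the cauda difference was -1.67.

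**Figure D4:**
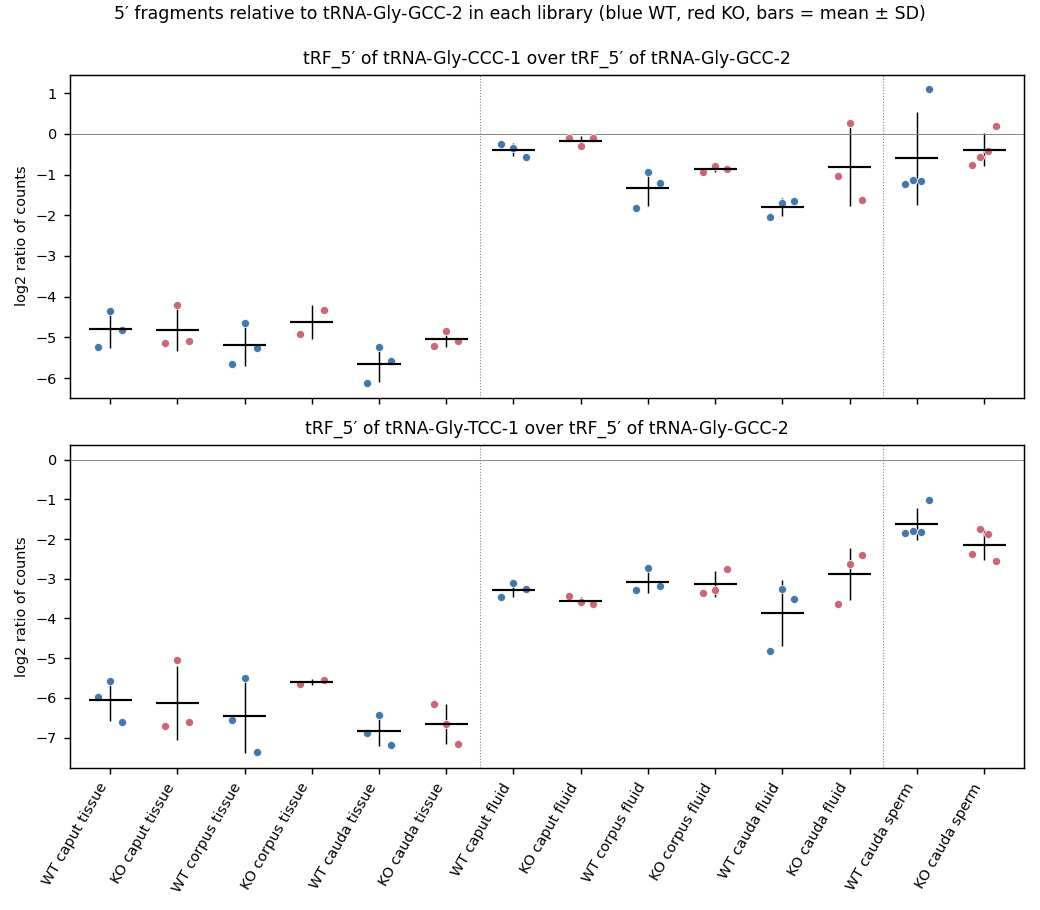
Log2 ratio of the 5′ tRF of CCC-1, and of TCC-1, to the 5′ tRF of tRNA-Gly-GCC-2 in each library, by segment and genotype. In fluid the WT points for CCC-1 lie highest in caput, between -0.57 and -0.25, and the KO cauda points spread from -1.64 to 0.27.

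The 5′ share of TCC-1 also differed along the WT duct. In fluid it was 88.5% ± 0.9 (SD, n = 3) in caput and 78.4% ± 3.0 (SD, n = 3) in cauda, without overlap. In tissue it was 9.45% ± 1.5 in caput, 12.8% ± 1.3 in corpus and 15.2% ± 1.3 in cauda (SD, n = 3 each), and neither corpus nor cauda overlapped caput. Fluid and tissue thus went in opposite directions from caput to cauda, each at the smallest exact permutation p of 0.1 and adjusted p = 0.574. The difference between those directions was not tested.

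The effect of the Rnase9-12 deletion was then examined in tissue. In caput tissue no member was called by edgeR or DESeq2, at an unadjusted p under 0.05 there were 0, and 0% of all rows were called. The log2 changes were split 9 to 9, between -0.34 and 0.30, and no member had groups that did not overlap (3.9% of all rows were lower and 3.24% higher in this way). The 3′ tRF of ACC-1 stood at 259, 174 and 242 CPM in WT and 153, 197 and 184 CPM in KO caput tissue.

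In cauda tissue all 18 members were lower in KO on average. None was called by edgeR, where 0.86% of all rows were (0.831% lower and 0.0287% higher), 8 had an unadjusted p under 0.05, and the lowest adjusted p was 0.0994. DESeq2 with default settings called 175 rows in all and 4 members, all lower: the type "other" of ACC-1, CCC-2, CCC-3 and CCC-4. KO libraries lay below all WT libraries for 12 of 18 members, where 10.1% of all rows did, and several of those 12 share reads. No member lay above, where 6.91% of all rows did. The median log2 change was -0.78 for the members, -0.56 for all tRFs and 0.12 for all rows, and -0.94 for the 12 tRNA-Gly-GCC fragments. The members' median stayed negative under each scaling, from -0.78 to -1.36, while the median of all rows moved between 0.12 and -0.42.

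Members of every anticodon are seen in that count. The type "other" of CCC-2 stood at 23.04, 20.8 and 13.4 CPM in WT and 7.38, 9.43 and 7.53 CPM in KO cauda tissue (log2 change -1.23, SE 0.36, edgeR adjusted p = 0.128). For TCC-1 the same type stood at 10.3, 11.45 and 20.2 CPM in WT and 7.45, 6.09 and 10.02 CPM in KO (log2 change -0.83, SE 0.35, edgeR adjusted p = 0.258). ACC-1 of that type had 3.29, 3.86 and 3.08 CPM in WT and 1.71, 1.54 and 1.13 CPM in KO. For all of these the groups did not overlap.

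TCC-1 5′ tRFs stood at 4.08, 5.42 and 10.1 CPM in WT and at 2.70, 2.53 and 4.05 CPM in KO cauda tissue (log2 change -1.08, SE 0.45, edgeR adjusted p = 0.256). ACC-1 3′ tRFs stood at 142, 158 and 202 CPM against 95.5, 104 and 90.6 CPM (log2 change -0.79, SE 0.26, edgeR adjusted p = 0.161). These groups too were apart. In contrast, the groups overlapped for the 5′ tRF of CCC-1: 6.87, 12.3 and 30.6 CPM in WT, and 5.21, 8.99 and 17.0 CPM in KO (log2 change -0.67, SE 0.69, edgeR adjusted p = 0.694). Its 3′ tRF overlapped as well, at 39.5, 52.4 and 134 CPM against 36.8, 42.9 and 60.2 CPM (log2 change -0.69, SE 0.50, edgeR adjusted p = 0.538). This overlap ignores replicate numbers: in each same-numbered pair KO was lower for both fragments. With a replicate block 0 members were called. Without WT cauda replicate 3, the library of 158606180 counts that is highest for both, the log2 change of the 5′ tRF was -0.04.

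Depth moved with part of this, while cell markers overlapped between genotypes. Both genotypes had their highest 5′ tRF level of CCC-1 in replicate 3, and all tRFs took 4.78% of counts in WT cauda replicate 3 against 2.01% and 1.28% in replicates 1 and 2. In KO cauda tissue all tRFs took 0.84%, 0.69% and 2.10%. Epithelial markers (5 microRNAs, all 5 with counts in every library) summed to 8.67 to 15.7 CPM in WT and 7.79 to 13.1 CPM in KO cauda tissue. Their part in the result was not tested, and in bulk samples fewer cells of a type and less RNA per cell cannot be told apart.

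The 5′ share of TCC-1 was lower in KO cauda tissue, at 12.2% ± 0.9 against 15.2% ± 1.3 (SD, n = 3 each), without overlap (exact permutation p = 0.1, adjusted p = 0.574). The log2 ratio of CCC-1 to GCC-2 5′ tRFs was higher in KO by 0.61, also without overlap and at the same p.

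In corpus tissue, with 2 KO libraries, 14 of 18 members had a negative log2 change (median -0.41). No member was called by edgeR, where 0% of all rows were, and 2 had an unadjusted p under 0.05. DESeq2 called no member and 24 rows in all. For 7 members both KO libraries lay below the 3 WT libraries, where 15.2% of all rows did: the 5′ tRFs of CCC-3, CCC-4 and TCC-1 and the 3′ tRFs of CCC-2 to CCC-4 and TCC-1. For CCC-4, the 5′ tRF had 44, 14 and 310 raw counts in WT and 13 and 20 in KO. Those raw counts overlap, and the groups were apart only on the CPM scale. The libraries held 44999325 to 162251170 counts in WT, and 91088031 and 94668105 in KO. Over the members, the lowest log2 change was -2.05, in a 5′ tRF, and the lowest edgeR adjusted p was 0.469. Epithelial markers summed to 10.5 and 10.7 CPM in the KO libraries and 16.3 to 25.9 CPM in WT, and smooth muscle markers to 24.3 and 29.5 CPM in KO and 44.2 to 87.5 CPM in WT. Their part in this was not tested. The KO effect in cauda against that in caput tissue, tested as an interaction, gave 0 members and 0% of all rows called by edgeR, with 5 members at an unadjusted p under 0.05. The interaction was not run in DESeq2.

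**Figure D5:**
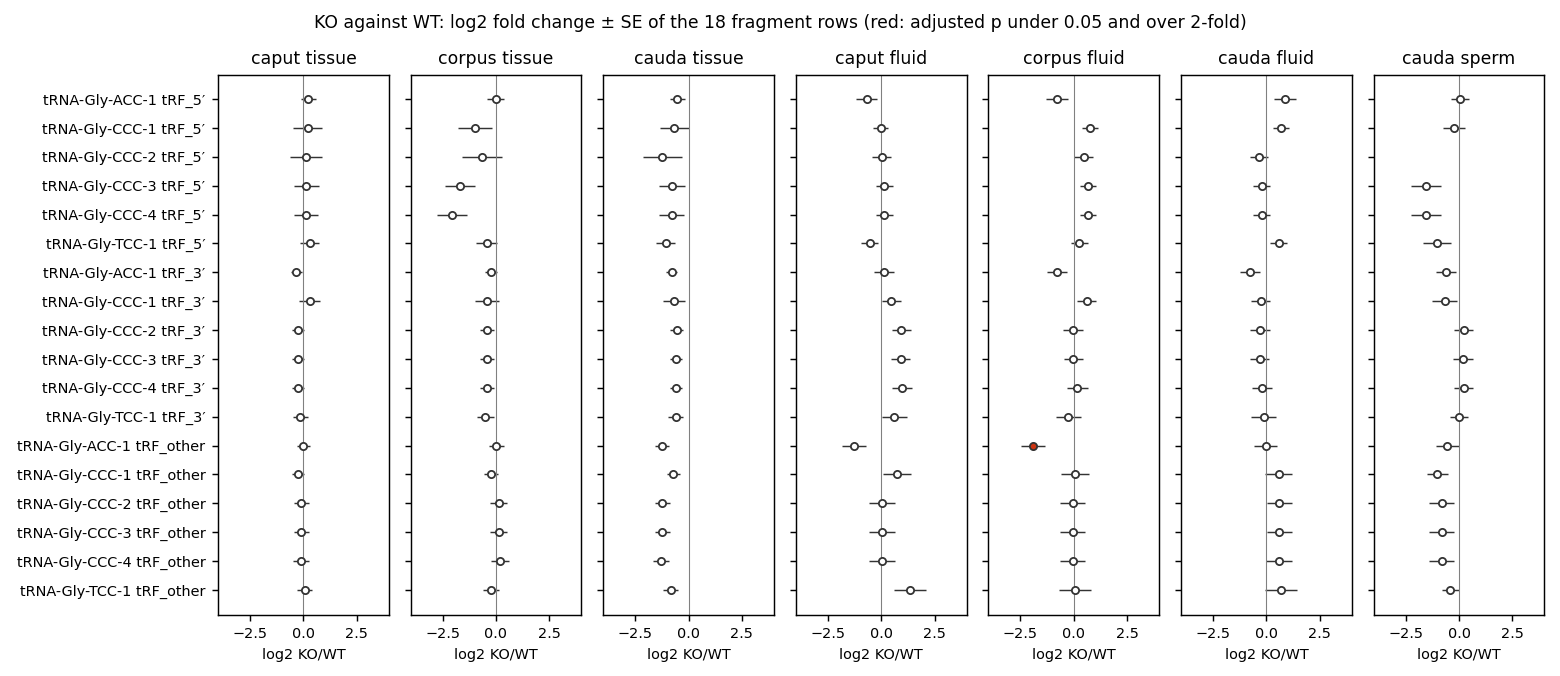
Log2 fold change (KO over WT, edgeR) with its standard error for each of the 18 members in caput, corpus and cauda tissue, the same fluids, and cauda sperm. Red marks the only call, the type "other" of ACC-1 in corpus fluid at -1.91, and every point in cauda tissue lies below 0.

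The same comparison was made in fluid. In caput fluid 14 of 18 members had a positive log2 change (median 0.14), none was called by edgeR, where 0% of all rows were, and 1 had an unadjusted p under 0.05. DESeq2 called no member and 9 rows in all. In KO, the CCC-1 5′ tRF stood at 23966, 25345 and 38313 CPM against 26968 to 32933 CPM in WT, and its log2 change of -0.03 (SE 0.36, edgeR adjusted p = 0.986) changed sign with the scaling. For TCC-1, the 5′ tRF stood at 3552, 4046 and 4548 CPM in WT and at 2361, 2603 and 3337 CPM in KO. The groups were apart, as they were for 2 members lower (12.7% of all rows), and the log2 change of -0.55 did not pass (SE 0.40, edgeR adjusted p = 0.699).

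One KO caput fluid library stood apart for internal and 3′ fragments. In replicate 1 the type "other" of TCC-1 reached 404 CPM, against 23.5 and 32.6 CPM in the other KO libraries and 57.6 to 66.3 CPM in WT. CCC-1 of that type reached 673 CPM, against 73.9 and 112 CPM, and the 3′ tRF of CCC-2 reached 88.9 CPM, against 21.6 and 27.5 CPM. The 5′ share of TCC-1 was accordingly 59.1% in that library, and 87.4% and 85.4% in the others, all below the 87.5% to 89.3% of WT. The 5′ share of CCC-1 was 88.8% ± 1.1 in KO and 92.04% ± 0.9 in WT (SD, n = 3 each), again without overlap (exact permutation p = 0.1 for both, adjusted p = 0.574).

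Full-length CCC-1 was found with 3, 5 and 3 counts in WT and 24, 31 and 23 counts in KO caput fluid. The groups did not overlap, and the log2 change was 2.19 (SE 1.02, edgeR adjusted p = 0.435) in the model over all fluid groups. With the 2 groups fitted alone it was 2.37 and passed (edgeR adjusted p = 0.0356). Full-length TCC-1 changed by 0.60 (log2, SE 0.69, edgeR adjusted p = 0.834). In KO corpus fluid the 2 full-length rows tested had log2 changes of 1.27 and 2.83 (lowest edgeR adjusted p = 0.164). In KO cauda fluid they went the other way, at -0.98 and -0.30. The 2 full-length rows tested in tissue were higher in KO in each segment, with log2 changes of 0.30 to 0.82. None of these was called. Epithelial markers summed to 241 to 298 CPM in KO and 103 to 182 CPM in WT caput fluid. Leukocyte markers summed to 11.8 to 17.5 CPM in KO and 6.44 to 9.98 CPM in WT, while the other marker sets overlapped. The part of these differences in the caput fluid values was not tested.

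In corpus fluid more of the table was called, and 1 of 18 members was called, lower, where 19.7% of all rows were called and 6.23% were called lower. The type "other" of ACC-1 stood at 76.6, 61.9 and 70.3 CPM in WT and 14.4, 15.4 and 25.7 CPM in KO corpus fluid, from 513, 657 and 349 counts against 36, 57 and 62. It fell by 1.91 (log2, SE 0.56, edgeR adjusted p = 0.0213). The same type of tRNA-Val-AAC-2 had 503, 440 and 299 counts in WT and 84, 89 and 101 in KO. The call was lost without WT replicate 1 or without KO replicate 1 or 2, and when only library size was used for scaling. Against other segments, the KO effect on this row differed from cauda fluid by -1.88 without passing (edgeR interaction, adjusted p = 0.136). Over the list, 0 of 18 members were called in that interaction, with 2 at an unadjusted p under 0.05, where 7.37% of all rows were called (2.87% lower and 4.5% higher). The corpus against the caput effect gave 0 of 18 and 0 at an unadjusted p under 0.05, where 1.83% of all rows were called (0.148% lower and 1.68% higher).

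The CCC-1 and TCC-1 5′ tRFs of corpus fluid differed in whether the groups overlapped. CCC-1 5′ tRFs stood at 15120, 24019 and 16981 CPM in WT and at 31879, 35079 and 28043 CPM in KO. The groups were apart, but the log2 change of 0.76 did not pass (SE 0.36, edgeR adjusted p = 0.139). Those of CCC-3 and CCC-4 were apart as well, at 32.4 to 43.3 CPM in WT and 55.7 to 62.4 CPM in KO, giving 3 members higher without overlap where 20.4% of all rows were, and 2 lower where 15.7% were. TCC-1 5′ tRFs overlapped, at 5454, 6881 and 4264 CPM against 6031, 6289 and 7602 CPM (log2 change 0.26, SE 0.40, edgeR adjusted p = 0.714). With scaling factors taken from rows other than tRNA and rRNA fragments, the median of all rows moved from 0.10 to -0.78. The changes of the CCC-1 and TCC-1 5′ tRFs were then -0.11 and -0.62, so the direction of both depended on the scaling.

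Cell markers and depth differed in the same comparison. Epithelial markers summed to 87.5 to 134 CPM in KO and 27.1 to 62.6 CPM in WT corpus fluid. The germ cell and sperm markers Mir34b, Mir34c and Mir449a summed to 12.8 to 15.4 CPM in KO and 3.58 to 9.06 CPM in WT. The KO libraries held 1948718 to 3373869 counts and the WT libraries 3989262 to 10172577. The part of each in the result was not tested.

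Within the library, the groups overlapped in corpus fluid. The log2 ratio of the CCC-1 to the GCC-2 5′ tRF was -1.32 ± 0.45 in WT and -0.87 ± 0.07 in KO corpus fluid (SD, n = 3 each). In cauda fluid it was -1.80 ± 0.22 in WT and -0.80 ± 0.97 in KO, where every KO library lay above every WT library (exact permutation p = 0.1, adjusted p = 0.574). KO replicate 2 stood at 0.27 and the other KO libraries at -1.04 and -1.64.

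In cauda fluid no member was called by edgeR, where 0% of all rows were, and none had an unadjusted p under 0.05. DESeq2 called no member and 42 rows in all. There the CCC-1 5′ tRF stood at 15227, 14683 and 26037 CPM in WT and at 19714, 50698 and 19197 CPM in KO (log2 change 0.68, SE 0.36, edgeR adjusted p = 0.531). TCC-1 5′ tRFs stood at 2233, 4912 and 7238 CPM against 3278, 6794 and 11281 CPM (log2 change 0.57, SE 0.40, edgeR adjusted p = 0.648). Both overlapped, and no member had groups apart in this fluid, where 3.91% of all rows were lower and 6.03% higher without overlap. The KO libraries overlapped WT for every member here, while the members' share of all tRF counts was 4.19% to 7.56% in KO and 2.40% to 3.41% in WT cauda fluid.

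Cauda sperm, the cell that leaves the duct, was compared last. Of the 17 members tested, since the 5′ tRF of CCC-2 held too few counts, 0 were called by edgeR, where 0% of all rows were. DESeq2 called 0 members and 140 rows in all. An unadjusted p under 0.05 was found for 2 members, the 5′ tRFs of CCC-3 and CCC-4, which held the same counts. The median log2 change was -0.60 for the members, -0.68 for all tRFs and -0.0028 for all rows, and 12 of 17 members were lower in KO. All 17 were lower with median-ratio factors, library size alone or factors from rows other than tRNA and rRNA fragments. The members' medians were then -0.81, -1.04 and -0.99, and those of all rows -0.19, -0.31 and -0.20. No member had groups that did not overlap, where 1.25% of all rows were lower and 8.15% higher. Without WT replicate 4, 1 member was called, the type "other" of CCC-1, along with 326 rows in all.

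In sperm, the CCC-1 5′ tRF stood at 871, 209, 407 and 309 CPM in WT and at 162, 514, 465 and 384 CPM in KO libraries. Its log2 change was -0.24 (SE 0.50, edgeR adjusted p = 0.866). The highest WT library was replicate 1, the only deep one in WT, and without it the log2 change was 0.08. Levels of the TCC-1 5′ tRF were 569, 132, 255 and 70.8 CPM in WT and 52.2, 228, 170 and 57.7 CPM in KO (log2 change -1.02, SE 0.66, edgeR adjusted p = 0.492). The log2 ratio of the CCC-1 to the GCC-2 5′ tRF was -0.61 ± 1.13 in WT and -0.39 ± 0.41 in KO (SD, n = 4 each, exact permutation p = 0.743). Depth went with genotype. With a term for depth, an alternative added after seeing the data, the members' median log2 change was -0.87 rather than -0.60, and 0 members were called with or without it.

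The rows whose log2 CPM followed these fragments most closely over the 18 fluid libraries are given as a description. For the 5′ tRF of CCC-1 they were a row of the Y RNA Rny3 (Pearson's r 0.74), the piRNA row pi-Kcng3.1 (0.72) and a 28S rRNA repeat row (0.70). For the 5′ tRF of TCC-1 they were the 5′ tRFs of tRNA-Val-CAC-3 (0.74) and tRNA-Val-AAC-2 (0.73) and another 28S row (0.74). For the 3′ tRF of ACC-1 they were the 3′ tRFs of tRNA-Val-CAC-2, tRNA-Val-AAC-1 and tRNA-Val-AAC-5, each at 0.97. No test was made on these.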

How the data were processed

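Small RNA reads were trimmed with cutadapt, and the labels also name UMI-tools. Per the methods, the authors mapped reads with bowtie2 through a modified tRAX pipeline to mm10 and mature tRNAs. Reads that fitted tRNAs best were kept there and required to be specific to amino acid and anticodon. Best mappings were all extracted, and a single primary mapping served for percentages by gene type. How a read that matched several tRNAs equally was counted is not stated outright. The deposited values are raw counts per row in separate tissue, fluid and sperm tables. 

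Each table was fitted apart with edgeR 4.0.16 (R 4.3.3): filterByExpr by group (minimum count 10, total 15), TMM factors, 1 quasi-likelihood model over all groups, Benjamini-Hochberg adjustment over 3488, 2023 and 2480 rows. Rows were called at more than a 2-fold change (log2 of 1) with adjusted p under 0.05. Ratios and shares were compared by exact 2-sided permutation tests (scipy 1.17.1). DESeq2 1.42.0, other scalings, no filter, the 2 groups alone, a replicate block and leaving out each library were tried as alternatives. Code was tested on simulated data. Values are printed for members called, the leading rows and the full-length rows. The members and lists were chosen with earlier results of these data known.

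Libraries were grouped by title. The labels do not say that tissue libraries came from separate animals, so p-values measure the spread between libraries. Tissue sample descriptions share a genotype and number across caput, corpus and cauda, and the main tests between segments treated those libraries as separate. Replicate 3 held the highest share of tRF counts in each tissue group that had one. Same-numbered WT and KO libraries deviated together at r above 0.1 in every pair only in cauda tissue (r 0.27 to 0.60, mean 0.38, 3 pairs). Caput tissue had a mean r of 0.42 (0.029 to 0.72, 3 pairs). The block changed no call in either.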

Additional observations from a re-analysis of the deposited data

Results flagged for a closer look

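Of 48 sets of 4 sperm libraries examined, by row or by ratio or share, 10 held a library far from the other 3. Chance gives about 1 in 20 for independent sets. These sets were not independent, since some rows share reads and the ratios share a denominator, so the 10 cannot be set against that rate. For the 3′ tRFs of tRNA-Gly-CCC-2, CCC-3 and CCC-4, which share reads, KO replicate 1 stood at 49.4, 48.2 and 49.2 CPM with the other KO libraries at 25.3 to 29.5 CPM. For the same 3 rows WT replicate 3, the shallowest library with 1134840 counts, stood at 44.4, 46.0 and 46.0 CPM with the other WT libraries at 21.1 to 24.2 CPM. The type "other" of TCC-1 stood at 336 CPM in WT replicate 1, the deepest WT library, with the others at 181 to 189 CPM.

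The 5′ share of CCC-1 was 56.2% in KO replicate 1 and 77.9% to 82.3% in the other KO sperm libraries. In WT sperm replicate 4 the log2 ratio to the 5′ tRF of tRNA-Gly-GCC-2 was 1.09 for CCC-1, with the others between -1.24 and -1.13. For TCC-1 it was -1.03 in the same library, with the others between -1.85 and -1.80.

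Rows that name single loci of these tRNAs, which entered no comparison, summed over 9 rows to a mean of 21.3 CPM in KO caput fluid (17.4 to 23.3, 3 libraries) and 11.2 in WT caput fluid (9.12 to 13.5, 3 libraries). The groups did not overlap.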

How the results depend on the processing

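For 173 of 191 fold changes recomputed under other settings, direction and side of the threshold held. Of 78 member counts, 70 stayed at or near the reported number, but single members could still cross the threshold within them. In WT cauda against caput fluid, 5 members were called as reported. Median-ratio factors gave 6, with the 3′ tRF of ACC-1 gained, and library size alone gave 4, with ACC-1 of the type "other" lost. Scaling by library size alone left 0 members called in WT cauda against caput tissue and 0 in KO corpus fluid. Factors from rows other than tRNA and rRNA fragments gave 0 in WT cauda against caput tissue, 1 in KO cauda tissue (42 rows called in all, 30 as reported), 3 in KO corpus fluid (672 rows, 399 as reported) and 3 in WT corpus against caput fluid, and turned the KO corpus fluid changes of the CCC-1 and TCC-1 5′ tRFs to -0.11 and -0.62. DESeq2 called 4 members in KO cauda tissue, and the 2 groups alone gave 3 in WT corpus against caput fluid. The KO caput fluid change of the CCC-1 5′ tRF turned to 0.018 with median-ratio factors, 0.13 by library size, 0.10 without a filter, 0.015 with DESeq2 and 0.13 with the 2 groups alone. With tRNA-Gly-GCC-1 as the denominator, the CCC-1 ratio differed by 0.0069 in KO corpus tissue, -0.48 in KO sperm (reversed), -0.18 in WT cauda against caput tissue and -1.67 in the same fluids, and the TCC-1 ratio by -0.10 in the tissues.

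Leaving out 1 library gave 0 to 2 members called in WT cauda against caput tissue, 3 to 5 in the same fluids (3 without any WT caput library), 0 to 1 in KO corpus fluid and 0 to 1 in sperm, where WT replicate 4 was left out. Fold changes that turned were the CCC-1 5′ tRF in KO caput fluid (-0.27 to 0.19 over all settings) and in sperm (-0.63 to 0.077, positive only without WT replicate 1), and the TCC-1 5′ tRF in KO corpus fluid (-0.047 without WT replicate 3, up to 0.28) and KO cauda fluid (-0.041 without KO replicate 3, up to 1.02). Of 66 ratio and share differences, 20 changed sign without 1 library, and of the 22 ratios 4 did under the other denominator. A replicate block changed 1 call, that of the ACC-1 type "other" in WT cauda against caput fluid (1.58, edgeR adjusted p = 0.0508), and no member count by over 1.5 times. The cause of these shifts was not tested.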
